A study of Mus musculus with 6 samples.

Results

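The genes described here are the hypoxia-inducible factors (HIFs) and the enzymes that sense oxygen for them, as transcribed in the ductus arteriosus (DA) of the mouse embryo. They are 9 of the 23997 genes in the table and were chosen by gene symbol, with earlier results of these data known. The α subunits are *Hif1a*, *Epas1*, and *Hif3a*, and the β subunit is *Arnt*. The prolyl hydroxylases are *Egln1*, *Egln2*, and *Egln3*. The others are the ubiquitin ligase subunit *Vhl* and the asparaginyl hydroxylase *Hif1an*. All 9 were found, none was listed at 0 in any library, and all 9 passed the filter on low values (a mean of at least 1 FPKM over the libraries). FPKM, the unit of the table, is a fragment count divided by transcript length and by the size of the library, so that levels can be compared between genes.

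A HIF is a pair of an α and a β subunit that binds DNA and turns on genes for glycolysis, blood vessel growth, and red cell production. The β subunit is always present, whereas the α subunit is made and destroyed continuously while oxygen is plentiful. Prolyl hydroxylases use oxygen to mark the α subunit, VHL recognises the mark and passes the protein to degradation, and the asparaginyl hydroxylase uses oxygen to block the contact of the α subunit with its coactivators. The control thus acts largely on protein, which RNA-Seq does not measure. The DA joins the pulmonary artery to the aorta before birth, when fetal blood is poor in oxygen, and its smooth muscle contracts once oxygen rises at birth.

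Bulk RNA-Seq was performed on whole DAs of C57BL/6 embryos at E17.5, in 3 wild type libraries (WT 0, 1, and 2) and 3 libraries of genotype Prdm6f/f; SM22-Cre, which are titled KO and are called KO 0, 1, and 2 below. SM22-Cre is a transgene that drives Cre-recombinase in smooth muscle cells (SMCs), so that floxed *Prdm6*, a gene of the PRDM family of chromatin regulators, is to be removed from SMCs and not from the other cells of the vessel. Whether WT embryos carried the Cre and how many embryos made up a library are not given in the sources used here, so that p-values measure the spread between libraries, which may be technical. Read depth cannot be read from FPKM values, but the steps between low values put the depth of each library at 0.927 to 1.19 times that of WT 1. This estimate rests on only 55 to 85 genes for a library. Libraries differed more in the number of genes listed at 0, from 8338 in KO 2 to 11886 in WT 2.

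The targeted gene does not check the labels: *Prdm6* was between 19.8 and 48.4 FPKM in WT and between 15.4 and 48.6 FPKM in KO libraries, and the floxed part is not known here. KO 0 held *Xist*, transcribed from the inactive X chromosome, at 81.0 FPKM together with the Y chromosome gene *Ddx3y* at 26.4 FPKM, which no other library did at such levels, and results are also given without it. All 10 smooth muscle markers searched were present in every library, and their summed level was 2505 to 5800 FPKM in WT and 937 to 2434 FPKM in KO. In bulk tissue, fewer cells of a type and less RNA per cell cannot be told apart. The summed level of 12 heart muscle markers was highest in WT 1 (1809 FPKM) and KO 2 (2084 FPKM), against 165 to 745 FPKM in the other libraries.

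Each gene was compared between the groups with limma on log2(FPKM + 0.1), fitted to all 12955 genes over the filter, with Benjamini-Hochberg adjustment over all of them. None of the 9 genes had an adjusted p under 0.05 in limma, where 0.00772% of all tested genes did (the single gene *Rn45s*, the ribosomal RNA precursor). *Rn45s* was listed at 0 in all 3 WT libraries and was at 3060, 3806, and 4520 FPKM in KO 0, 1, and 2. It separates the groups completely, so a difference in how the libraries were made or processed cannot be told apart from genotype in any of the comparisons, that of *Egln3* included, and its part in them was not tested. At an unadjusted p under 0.05, 1 of the 9 passed in limma, *Egln3*, against 8.28% of all tested genes. The KO values lay entirely beyond the WT values for the same 1 of 9, against 16.1% of all tested genes in either direction and 7.84% in the lower direction, so that 1 of 9 is close to the background share. The median log2 fold change (KO minus WT) of the 9 genes was 0.05, and that of all tested genes was 0.07.

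**Figure D1:**
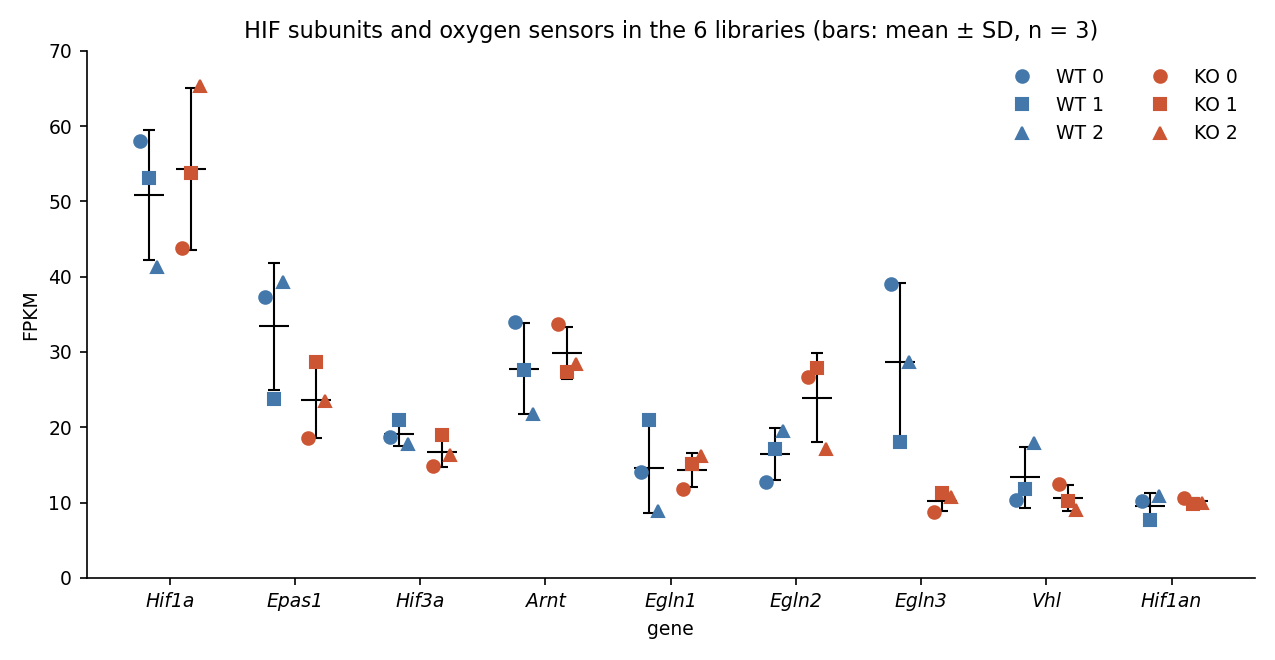
FPKM (vertical axis, linear from 0) of the 9 genes in each of the 6 libraries. Points are libraries (blue WT, red KO, symbol by library number) and bars are the mean ± SD of 3 libraries. *Egln3* lies between 18.1 and 39.1 FPKM in WT and between 8.75 and 11.2 FPKM in KO, and each of the other genes overlaps between the groups.

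*Egln3* encodes the prolyl hydroxylase that HIFs themselves induce most readily in many cells, and it was first described as a gene that growth factors induce in vascular smooth muscle. In GRCm38, which mm10 is the UCSC name for, it occupies 54178981 to 54203860 of chromosome 12 on the minus strand, and no other annotated gene overlaps it. *Egln2*, whose enzyme is less dependent on hypoxia for its expression, lies on chromosome 7 on the minus strand from 27158658 to 27166802. The 250 bases before the RefSeq start of each (GRCm38.p6, *Egln3* at chr12:54203875-54204124 and *Egln2* at chr7:27166803-27167052) are shown because these were the hydroxylases with the largest differences between the groups, in opposite directions. They are written 5′ to 3′ on the strand of the gene. Capitals mark ACGTG and GCGTG, the core letters of the element that HIFs bind, on either strand.
*Egln3*: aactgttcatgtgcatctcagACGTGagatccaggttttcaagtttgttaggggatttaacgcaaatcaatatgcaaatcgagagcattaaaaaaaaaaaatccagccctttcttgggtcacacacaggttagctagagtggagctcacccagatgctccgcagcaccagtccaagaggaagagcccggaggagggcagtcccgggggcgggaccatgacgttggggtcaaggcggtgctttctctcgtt
*Egln2*: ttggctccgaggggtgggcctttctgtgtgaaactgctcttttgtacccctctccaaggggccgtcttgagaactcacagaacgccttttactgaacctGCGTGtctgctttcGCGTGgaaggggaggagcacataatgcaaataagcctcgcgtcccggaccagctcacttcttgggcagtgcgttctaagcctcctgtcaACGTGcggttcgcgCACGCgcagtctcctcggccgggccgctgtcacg

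The *Egln3* window held 1 match, an ACGTG that begins 229 bases before the start, and this *Egln2* window held 4, of which CACGC is GCGTG read from the other strand. RefSeq windows were at hand for 8 of the 9 genes, in 9 windows because *Egln2* has an additional RefSeq start inside the gene, and 7 of the 9 windows held at least 1 match. Those of *Vhl* and *Hif1an* held none. In *Hif1a*, 2 of the 3 matches overlap, since the palindrome CACGTG reads as the motif on both strands. The *Hif1a* window, from 73907617 to 73907866 of chromosome 12, lies inside the annotated span of the gene. The first bases after it were not found in an annotated transcript, unlike those of the other windows. Of 32841 such windows over all genes, 38.6% held at least 1 match, 16.6% held ACGTG, and 28.2% held GCGTG. The letters are short and common, and a match in a window describes the sequence only.

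The transcript level of *Egln3* was 39.1, 18.1, and 28.7 FPKM in WT 0, 1, and 2 and 8.75, 11.2, and 10.7 FPKM in KO 0, 1, and 2. Every KO library thus lay below every WT library, and the KO libraries also lay close to each other (SD 1.30 FPKM against 10.5 FPKM in WT, n = 3 each). The mean in KO was 0.357 times that in WT. The log2 fold change was -1.42 (standard error 0.31, 95% interval -2.15 to -0.69), and limma gave an unadjusted p = 0.00222 and an adjusted p = 0.414. The two-sided exact permutation test over the 6 libraries gave p = 0.1, the smallest that 3 against 3 allows. By unadjusted p, *Egln3* ranked 68 among the 12955 genes, and 413 genes had a lower log2 fold change. Without KO 0 the log2 fold change was -1.31, and with any 1 of the 6 libraries omitted it lay in the range from -1.71 to -1.16.

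*Egln1* encodes the main oxygen sensor of most cells. Its level was 14.1, 20.9, and 8.85 FPKM in WT and 11.8, 15.1, and 16.1 FPKM in KO, so that the KO values lay inside the WT range (log2 fold change 0.05, 95% interval -0.76 to 0.85, adjusted p = 0.974 from limma). *Egln2* was at 12.8, 17.1, and 19.5 FPKM in WT and at 26.7, 27.9, and 17.1 FPKM in KO. KO 0 and KO 1 lay above every WT library and KO 2 did not (log2 fold change 0.53, 95% interval -0.12 to 1.17, adjusted p = 0.643 from limma). *Cyp2t4*, which overlaps *Egln2* on the other strand, was at 0 to 1.21 FPKM and adds little to it.

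Because the 3 prolyl hydroxylases were measured in the same libraries, their shares of the summed FPKM do not depend on the scaling between libraries. These shares were computed after the values of the single genes were seen. They are parts of a whole, so a lower share of *Egln3* raises the others, and they are not separate results. The level of *Egln2* by itself overlapped between the groups, as given above. *Egln3* made up 59.3%, 32.2%, and 50.3% of the sum in WT and 18.5%, 20.7%, and 24.3% in KO, without overlap (exact permutation p = 0.1). *Egln2* made up 19.4%, 30.5%, and 34.2% in WT and 56.6%, 51.4%, and 39.0% in KO, also without overlap (exact permutation p = 0.1), whereas the share of *Egln1* overlapped (15.5% to 37.2% in WT and 24.9% to 36.7% in KO). *Egln3* was therefore the most abundant hydroxylase in WT 0 and WT 2, and *Egln2* was the most abundant in all 3 KO libraries. The summed level itself was 56.1 to 65.9 FPKM in WT and 43.9 to 54.3 FPKM in KO.

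**Figure D2:**
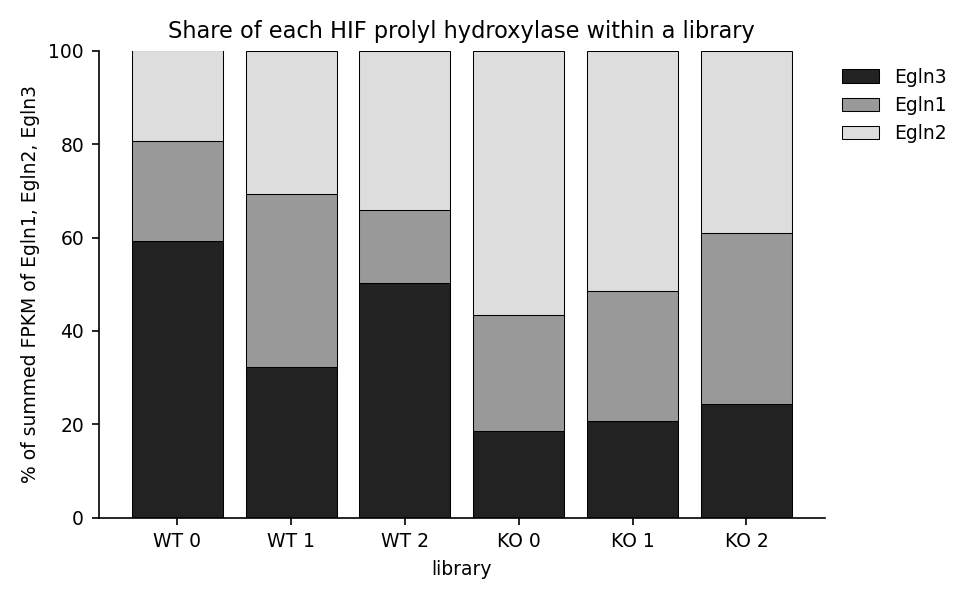
Share (vertical axis, percent) of the summed FPKM of *Egln1*, *Egln2*, and *Egln3* in each library. The black part, *Egln3*, is 32.2% to 59.3% in WT and 18.5% to 24.3% in KO.

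Between the groups, the smooth muscle markers moved in the same direction as *Egln3*. All 10 tested markers had a negative log2 fold change, with a median of -1.34. Of the 10, 5 lay lower in KO without overlap, against 7.84% of all tested genes. Among these were *Cnn1*, the gene of calponin (log2 fold change -2.02, adjusted p = 0.463 from limma), and *Lmod1*, the gene of leiomodin (log2 fold change -2.05, adjusted p = 0.414 from limma). The mean level of the 10 markers on the log2(FPKM + 0.1) scale was 8.03, 7.15, and 6.87 in WT and 6.45, 6.25, and 5.56 in KO. Within the groups the order of libraries differed in part. Both were highest in WT 0, but in WT the markers were lowest in WT 2 and *Egln3* in WT 1. In KO, the markers were highest in KO 0, where *Egln3* was lowest. Relative to the marker mean in the same library, *Egln3* was at -2.73, -2.96, and -2.03 in WT and at -3.31, -2.75, and -2.14 in KO on the log2 scale, which overlap. The difference was then -0.16 in place of -1.42 (exact permutation p = 0.7). The markers were themselves lower in KO, so this sets the group difference of *Egln3* against theirs. Relative to the mean of 15 endothelial markers, *Egln3* lay lower in KO without overlap, by 1.85 on the log2 scale (exact permutation p = 0.1). That mean was itself higher in KO by 0.43, with overlap. Both references were chosen after the values were seen, and the marker lists with earlier results of these data known. The part of the smooth muscle markers in the *Egln3* values was not tested.

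**Figure D3:**
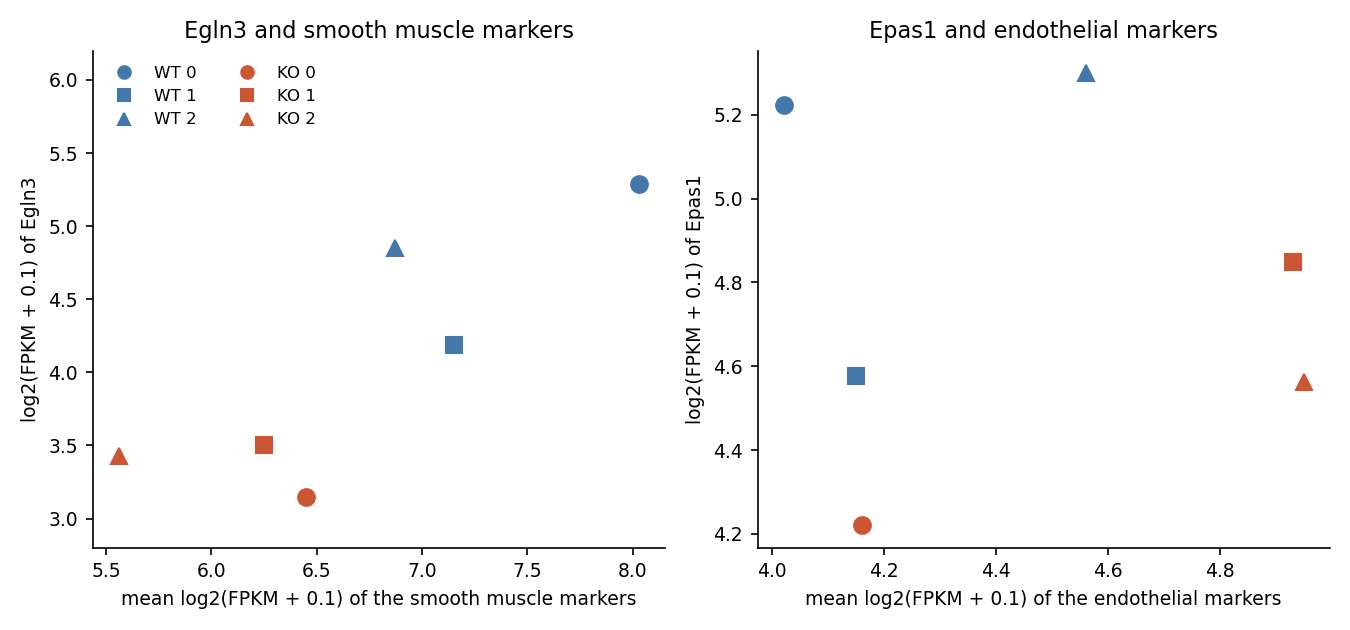
Level of *Egln3* against the mean of the smooth muscle markers (left) and of *Epas1* against the mean of the endothelial markers (right), each on the log2(FPKM + 0.1) scale, with 1 point for each library. The 3 KO libraries have the lowest values on both axes of the left panel (at most 6.45 for the markers), and in the right panel the groups overlap on both axes.

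*Hif1a* encodes the α subunit found in nearly all cells, which drives glycolytic genes in hypoxia. It was the most abundant of the 9 genes in every library, at 58.1, 53.1, and 41.3 FPKM in WT and 43.8, 53.7, and 65.4 FPKM in KO. WT 2 had the lowest value and KO 2 the highest, and the groups overlapped (log2 fold change 0.09, 95% interval -0.41 to 0.59, adjusted p = 0.901 from limma). Its sign turned with WT 2 or KO 2 left out, to -0.05 in both cases. The annotation places 2 other genes over *Hif1a* (chromosome 12 from 73901375 to 73947530), 1 of them antisense, and the strand of the reads is not given, so part of its value may be theirs. The same limit holds for *Epas1* and *Arnt*, each with 1 overlapping gene on the same strand, and for *Hif3a*, with 1 on the other strand.

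*Epas1* encodes the α subunit that is prominent in endothelium and in oxygen-sensing cells of the carotid body. Its level was 37.2, 23.7, and 39.3 FPKM in WT and 18.5, 28.7, and 23.5 FPKM in KO. WT 1 lay within the KO range and the other WT libraries lay above it (log2 fold change -0.49, 95% interval -1.11 to 0.14, adjusted p = 0.649 from limma). The interval thus includes both no difference and a lower level in KO by more than 1 log2 unit. The log2 ratio of *Epas1* to *Hif1a* within a library, computed after the values were seen, was -0.64, -1.16, and -0.07 in WT and -1.24, -0.90, and -1.47 in KO, which overlap (exact permutation p = 0.2).

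The endothelial markers did not move with *Epas1*. Of 15 tested, 10 had a positive log2 fold change, and the median of the 15 was 0.44. Where 1064 of all 12955 tested genes lay higher in KO without overlap, 4 of the 15 did (*Cldn5*, *Sox17*, *Sox18*, and *Tek*). Relative to the mean of the 15 markers, *Epas1* was at 1.20, 0.43, and 0.74 in WT on the log2 scale. In KO it was at 0.06, -0.08, and -0.39, without overlap (difference -0.92, exact permutation p = 0.1). *Epas1* by itself overlapped between the groups, and the marker mean was higher in KO by 0.43 with overlap. The difference joins both and is not a separate result. Relative to the smooth muscle markers, which were lower in KO, *Epas1* was higher in KO by 0.77 with overlap (exact permutation p = 0.2). Both references were chosen after the values were seen. The markers of sympathoadrenal and glomus cells, which use *Epas1*, were near the floor: between 3 and 9 of the 11 genes were listed at 0 in every library but KO 2, and *Th*, which encodes tyrosine hydroxylase, was at 0 in all WT libraries and at most 1.87 FPKM in KO. The part of such cells in the *Epas1* values was not tested. All 8 tested erythroid markers had a positive log2 fold change (median 1.36) and all overlapped between the groups, while the median was -0.42 for 8 macrophage, 0 for 8 fibroblast, and 0.35 for 6 epithelial markers.

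*Hif3a* encodes an α subunit with several splice forms, some of which restrain the other α subunits, and values per gene do not separate the forms. It varied least of the α subunits, at 18.6, 20.9, and 17.8 FPKM in WT and 14.9, 19.0, and 16.3 FPKM in KO. KO 0 and KO 2 lay below every WT library and KO 1 did not (log2 fold change -0.19, 95% interval -0.68 to 0.29, adjusted p = 0.778 from limma). The summed level of the 3 α subunits was 97.7 to 114 FPKM in WT and 77.2 to 105 FPKM in KO.

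*Arnt*, the β subunit shared by all HIFs and by the dioxin receptor, was at 34.0, 27.6, and 21.8 FPKM in WT and at 33.8, 27.3, and 28.4 FPKM in KO. The KO values lay inside the WT range (log2 fold change 0.12, 95% interval -0.40 to 0.64, adjusted p = 0.87 from limma). *Vhl* was at 10.3, 11.8, and 17.9 FPKM in WT and at 12.4, 10.2, and 9.05 FPKM in KO, with WT 2 above the rest (log2 fold change -0.31, 95% interval -1.01 to 0.39, adjusted p = 0.757 from limma). *Hif1an*, the asparaginyl hydroxylase, was at 10.2, 7.74, and 10.9 FPKM in WT and at 10.6, 9.86, and 9.95 FPKM in KO. The KO values again lay inside the WT range (log2 fold change 0.09, 95% interval -0.54 to 0.72, adjusted p = 0.923 from limma).

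**Figure D4:**
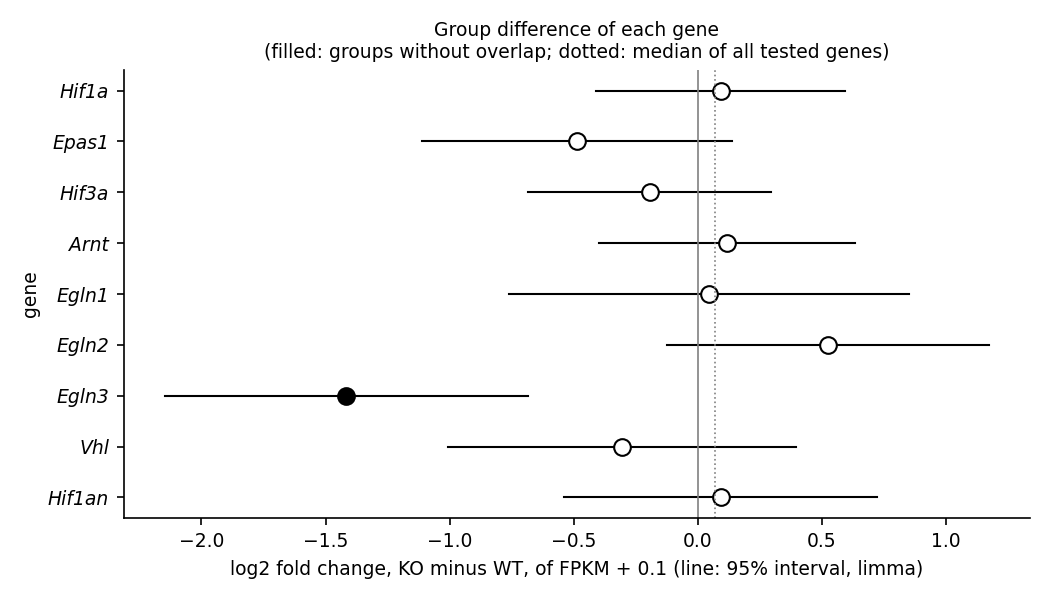
Log2 fold change (KO minus WT, horizontal axis) of each of the 9 genes with its 95% interval from limma. Filled points mark genes whose groups do not overlap. The interval of *Egln3*, from -2.15 to -0.69, is the only one of the 9 that leaves out 0, before any adjustment.

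By mean level, the order in WT was *Hif1a* (50.8 ± 8.63 FPKM, SD, n = 3), *Epas1* (33.4 ± 8.44), *Egln3* (28.6 ± 10.5), *Arnt* (27.8 ± 6.08), *Hif3a* (19.1 ± 1.60), *Egln2* (16.5 ± 3.40), *Egln1* (14.6 ± 6.05), *Vhl* (13.4 ± 4.02), and *Hif1an* (9.60 ± 1.65). *Hif1a* lay above its neighbour without overlap, as did *Arnt* above *Hif3a*, and the ranges of the other neighbours overlapped. In KO the order began with *Hif1a* (54.3 ± 10.8 FPKM, SD, n = 3), again clear of its neighbour, and then *Arnt* (29.8 ± 3.46). *Egln3* (10.2 ± 1.30) came at place 8 in KO, against place 3 in WT. From *Arnt* down, every neighbour in the KO order overlapped with the next.

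Other genes of the pathway were described by lists, chosen with earlier results of these data known. Over all 5 lists, without the 9 genes, 84 of 88 genes were tested and none had an adjusted p under 0.05 in limma. At an unadjusted p under 0.05 in limma there were 6 higher and 3 lower in KO, and 9 lay higher and 3 lower without overlap. Of all 12955 tested genes, 429 were higher and 644 lower in KO at that threshold. Without overlap, 1064 of them lay higher and 1016 lower. The median log2 fold change was 0.04 against 0.07 for all tested genes, and the share without overlap was close to that of all tested genes.

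Among 20 HIF partners, cofactors, and parts of the degradation complex, the median log2 fold change was -0.14. *Tceb2* encodes elongin B, which binds VHL in the ubiquitin ligase that removes the α subunits. Its level was 57.7, 75.6, and 64.6 FPKM in WT and 21.8, 35.7, and 46.8 FPKM in KO, so that every KO library lay below every WT library (log2 fold change -0.98, unadjusted p = 0.00973 and adjusted p = 0.533 from limma). *Rbx1*, the RING subunit of the same ligase, lay higher in KO without overlap (log2 fold change 0.55, adjusted p = 0.574 from limma), and so did *Sirt1*, which encodes a deacetylase of α subunits (log2 fold change 0.86, adjusted p = 0.595 from limma). *Siah1a*, which encodes a ubiquitin ligase of prolyl hydroxylases, also lay higher without overlap and is named after its value was seen (log2 fold change 0.53, adjusted p = 0.649 from limma).

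The HIF targets of glycolysis and glucose uptake comprised 20 genes, with a median log2 fold change of 0.14, 15 positive and 5 negative. *Pgk1* (phosphoglycerate kinase) was at 54.8, 54.0, and 46.0 FPKM in WT and at 72.5, 50.8, and 77.5 FPKM in KO, with KO 1 inside the WT range (log2 fold change 0.36, adjusted p = 0.66 from limma). *Ldha* (lactate dehydrogenase) had a log2 fold change of 0.17, *Slc2a1* (the main glucose transporter) of 0.27, and *Pdk1* (which holds pyruvate back from mitochondria) of 0.11, and the groups overlapped for each. *Slc2a3*, a glucose transporter of neurons and other cells, was at 0, 1.34, and 0 FPKM in WT and at 2.57, 6.05, and 6.17 FPKM in KO. It lay higher in KO without overlap but low in all libraries (unadjusted p = 0.0134, adjusted p = 0.54 from limma), and no fold is given since WT values listed at 0 can be failed estimates. *Slc16a3*, the lactate exporter, was the other gene without overlap (log2 fold change 0.55, adjusted p = 0.657 from limma).

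Of 28 tested targets outside glycolysis, a list that also holds *Egln1* and *Egln3*, the median log2 fold change was 0.05. *Ndrg1*, a hypoxia-induced gene that is also needed in the Schwann cells of peripheral nerve, was at 19.0, 13.3, and 16.7 FPKM in WT and at 31.2, 48.2, and 31.4 FPKM in KO. Every KO library lay above every WT library (log2 fold change 1.15, unadjusted p = 0.00206 and adjusted p = 0.414 from limma). The 11 Schwann cell markers had a median log2 fold change of 2.34. Where 1064 of all 12955 tested genes lay higher in KO without overlap, 6 of these 11 markers did. Their mean level on the log2(FPKM + 0.1) scale was 0.73, 0.42, and 0.70 in WT, with 2 or 3 genes at 0, and 2.07, 3.67, and 4.18 in KO, with 0 at 0, without overlap. Their summed level did overlap (102 to 133 FPKM in WT and 124 to 281 FPKM in KO), and most of that sum in WT was *Pmp22*, a myelin gene at 82.6 to 115 FPKM in WT and 69.9 to 89.7 FPKM in KO and the only marker of the 11 with a negative log2 fold change (-0.27). The markers' part in the *Ndrg1* values was not tested.

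*Plod2*, a lysyl hydroxylase of collagen that needs oxygen itself, was at 75.8, 64.3, and 51.9 FPKM in WT and at 91.6, 88.1, and 93.4 FPKM in KO, without overlap (log2 fold change 0.52, adjusted p = 0.552 from limma). *P4ha1*, a collagen prolyl hydroxylase named after its values were seen, lay higher in the same way (log2 fold change 0.51, adjusted p = 0.6 from limma). *Fam162a*, a mitochondrial protein gene induced by HIF, was the only target besides *Egln3* that lay lower without overlap (log2 fold change -0.34, adjusted p = 0.624 from limma). The vessel growth factor *Vegfa* ranged from 22.5 to 41.5 FPKM in WT and from 15.8 to 37.8 FPKM in KO, which overlap (log2 fold change -0.13, adjusted p = 0.922 from limma). *Adm* (adrenomedullin, log2 fold change -0.28) and *Bnip3* (a mitophagy receptor, log2 fold change -0.01) overlapped as well. *Car9* (carbonic anhydrase) and *Ankrd37* stayed under 6 FPKM in every library and were listed at 0 in at least 1, and *Epo* was listed at 0 in all 6.

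Of 18 other oxygen-dependent enzymes, 3 lay higher in KO without overlap, where 1064 of all 12955 tested genes did. They were *Plod2*, *P4ha1*, and *Kdm5a*, a histone demethylase (log2 fold change 0.64, adjusted p = 0.601 from limma). None of the 18 lay lower without overlap, and the median log2 fold change of the list was 0.14. Among the oxygen-regulated mitochondrial subunits, 6 of 8 were tested and the median was -0.57. *Cox4i2* encodes the form of a cytochrome c oxidase subunit that is used in oxygen-sensing and contractile vascular cells. Its level was 29.4, 17.8, and 50.3 FPKM in WT and 7.73, 14.9, and 3.55 FPKM in KO, with every KO library below every WT library (log2 fold change -1.98, unadjusted p = 0.00864 and adjusted p = 0.516 from limma). As for *Egln3*, the smooth muscle markers were lower in the same libraries, and their part in the *Cox4i2* values was not tested. *Ndufa4l2*, a HIF target in the respiratory chain, overlapped (log2 fold change 0.55, adjusted p = 0.687 from limma).

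**Figure D5:**
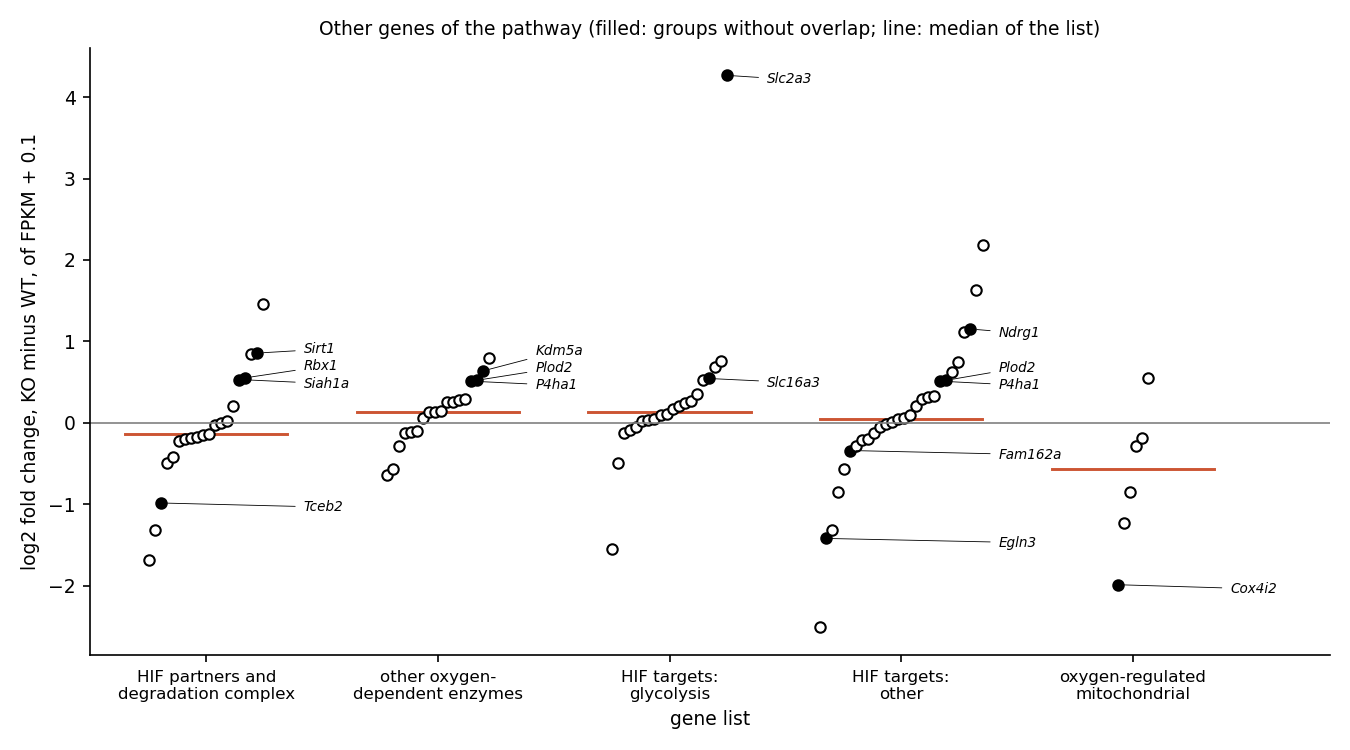
Log2 fold change (KO minus WT, vertical axis) of every tested gene in the 5 lists of the pathway, each gene 1 point in a list. Genes in more than 1 list, among them *Plod2* and *P4ha1*, appear in each. Filled and labelled points are genes whose groups do not overlap, and orange lines are list medians, from -0.57 for the mitochondrial subunits to 0.14 for the glycolytic targets and the other enzymes. *Egln3* and *Cox4i2* are low in their lists and *Ndrg1* is high.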

How the data were processed

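After trimming for quality and length, the authors used TopHat2 to place reads on mm10, and the deposited FPKM values came from Cufflinks and Cuffdiff for each gene in each library. Versions, annotation, strand, and scaling between libraries are not given in the sources used here. The 6 columns were matched to samples by title, and 0 columns were left over. FPKM holds no counts, so no count test, counting interval, or floor was used. Values were taken as log2(FPKM + 0.1) here, and every gene averaging 1 FPKM or more was fitted with limma 3.58.1 in R 4.3.3 (lmFit, eBayes with trend, two-sided). Cuffdiff needs the reads and was not repeated. The code was tested on simulated data. The 9 genes were given by symbol. Other genes named are well-known HIF targets, the largest differences without overlap (at most 2 in each direction of a pathway list, with *Siah1a* and *P4ha1* added after their values were seen), single markers of the cell type lists, and the 3 genes with the most similar pattern to *Hif1a*, *Epas1*, *Hif3a*, and *Egln3* among genes averaging 5 FPKM or more. Members and lists were chosen with earlier results of these data known. Positions are from GENCODE vM21 on GRCm38, and sequences from RefSeq. Alternatives covered the pseudocount, filter, scaling, variance model, replicate block, and omission of libraries.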

Additional observations from a re-analysis of the deposited data

How the results depend on the processing

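No alternative called any of the 9 genes, and *Egln3* lay lower in KO without overlap in all of them. Only quantile normalization and median centring could have changed that lack of overlap. The other settings keep the order of the libraries for a gene, and leaving libraries out cannot bring separate groups into overlap. The log2 fold change of *Egln3* ranged from -1.75 to -1.15 and its adjusted p from 0.287 to 0.871 in limma. *Epas1*, *Hif3a*, and *Vhl* kept a negative and *Egln2* a positive log2 fold change in every alternative, but their size moved: with a library left out, *Epas1* lay between -0.717 (without WT 1) and -0.326 (without KO 0), *Hif3a* between -0.288 (without KO 1) and -0.115 (without KO 0), *Vhl* between -0.471 (without WT 0) and -0.076 (without WT 2), and *Egln2* between 0.354 (without WT 0) and 0.749 (without KO 2). With array weights *Epas1* was at -0.217. With a library left out, *Hif1a* lay between -0.052 and 0.237, *Arnt* between -0.043 and 0.275, *Egln1* between -0.269 and 0.346, and *Hif1an* between -0.054 and 0.19 on the log2 scale. *Egln1* was at -0.262 with array weights. Without WT 1 and KO 2, the libraries highest in heart muscle markers (chosen after the data were seen), *Hif1a* was at -0.013 and *Hif1an* at -0.04.

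Of the 9 genes, 1 lay without overlap in each alternative with all 6 libraries, and 1 to 3 did with a library left out: *Epas1* joined without WT 1 (where 28.9% of all tested genes lay without overlap), *Vhl* without KO 0 (26.7%), *Epas1* and *Hif3a* without KO 1 (24.0%), and *Egln2* without KO 2 (25.1%). These counts are close to those shares. Without WT 1 and KO 2 there were 3, where 38.0% of all genes lay without overlap. The number of genes called over the whole table, 1, was 2 when no mean-variance trend was fitted (*Brinp3* in addition), 2 without WT 1 and KO 2, and 1 to 2 with a library left out. With the replicate block it was 1, and the log2 fold change of *Egln3* was -1.42 (adjusted p = 0.383 from limma). The block cannot move a fold change here, since every library number is present in both groups. Whether same-numbered libraries share more than a number is not given. Their deviations from the group means correlated at 0.12, -0.08, and -0.01. Pairs with unlike numbers ranged from -0.12 (WT 0 and KO 2) to 0.144 (WT 1 and KO 2). The cause of these differences was not tested. The median of all genes was 0.07, with a range from 0.008 under quantile normalization to 0.133 with no filter.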

Other observations

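The genes whose pattern over the 6 libraries was most like that of each α subunit and of *Egln3* were found by Pearson's r of log2(FPKM + 0.1) among 9121 other genes with a mean of at least 5 FPKM. The r values are a description over 6 libraries, and with so many genes searched high values are reached readily. For *Hif1a* they were *Entpd1* (r = 0.987), *Socs5* (0.986), and *2810025M15Rik* (0.973). For *Epas1* they were *Tbca* (0.987), *Stk4* (0.986), and *Bin3* (0.985). For *Hif3a* they were *Zfp949* (0.971), *Gabpb1* (0.968), and *Irgq* (0.958). For *Egln3* they were *Serf2* (0.998), *Sec11a* (0.992), and *Hmgb2* (0.992). *Serf2*, for example, was at 121, 83.2, and 101 FPKM in WT and at 56.5, 63.4, and 60.6 FPKM in KO, in the same order of libraries as *Egln3*.

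Among the 9 genes themselves, the pairs with r of the largest size over the same 6 libraries were picked after the values were seen. *Hif1a* and *Vhl* had r = -0.90, *Egln3* and *Epas1* r = 0.86, *Egln1* and *Hif1an* r = -0.86, and *Egln3* and *Egln2* r = -0.74. The r values join both groups, so those of *Egln3* include its difference between WT and KO. All 9 values of a library share its depth and its mixture of cells.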
